A study of Homo sapiens with 29 samples.

Results

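The early response of LHCN-M2 cells to loss of ZNF148 was measured 24 h after siRNA transfection, in cells that were still subconfluent and kept in growth media. The arrays titled as siZNF148 at 24 h in growth media (n = 3) were compared with those titled as siControl at the same time and in the same media (n = 3), so that 6 of the 29 arrays of the series were at the centre of the comparison. The whole series followed the same 2 transfections to later times and into differentiation media. Both groups carried 20 nM of siRNA, and the labels set them apart by its target. The siControl siRNA is nontargeting, and siZNF148 is directed at the transcript of ZNF148. The labels do not say whether siZNF148 was a pool or a single siRNA. LHCN-M2 is 1 line of human skeletal myoblasts that was immortalized with telomerase and CDK4, which every array shares. With 1 siZNF148 treatment, an effect of its sequence or sequences on other transcripts cannot be told apart from loss of ZNF148. The replicates are labelled biological, and each is a separate array.

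Agilent arrays with 1 colour give the brightness of each probe. Values are log2 signals after quantile normalization, and a log2 change of 1 is a 2-fold change. Between 41.6% and 48.4% of the probes of the 6 arrays were well above background, and the number of arrays limits the precision. All 6 arrays were on 1 slide, with 2 siControl arrays and 1 siZNF148 array in its first row and 1 siControl and 2 siZNF148 arrays in its second. Of 12 tested myoblast markers, 10 were well above background on all 6 arrays, among them MYF5, MYOD1, DES and CDH15, whereas PAX7 and MYOG were above background on 1 siControl array each. MYOD1, the myogenic master factor, was the one called, with a rise of 1.13. Of 6 immune cell markers, 2 were above background on all 6 arrays and 2 on none.

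ZNF148 is a zinc finger factor that binds G-rich DNA and can raise or lower transcription of its targets. Its signal was 8.62, 8.67 and 8.68 on the siControl arrays and 7.09, 7.29 and 7.01 on the siZNF148 arrays. The groups did not overlap, and both ZNF148 probes fell. The log2 change was -1.53 (SE 0.14, limma adjusted p = 4.3e-08). Calls were made in limma where the p-value, adjusted by the method of Benjamini and Hochberg, was under 0.05 and the change exceeded 2-fold. Of 18432 genes tested, 1020 were called (5.53%), 453 higher (2.46%) and 567 lower (3.08%). Well above background on all 6 arrays were 292 of the higher and 361 of the lower genes. The groups did not overlap for 435 of the higher and 535 of the lower genes, but this also held for 55.5% of all genes. Of the 38839 probes tested, 1.93% were called higher and 2.9% lower. With no fold threshold, 15.7% of genes were higher and 16.8% were lower. The direction was the same in both rows of the slide for 450 of the 453 higher and 558 of the 567 lower genes.

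**Figure D1:**
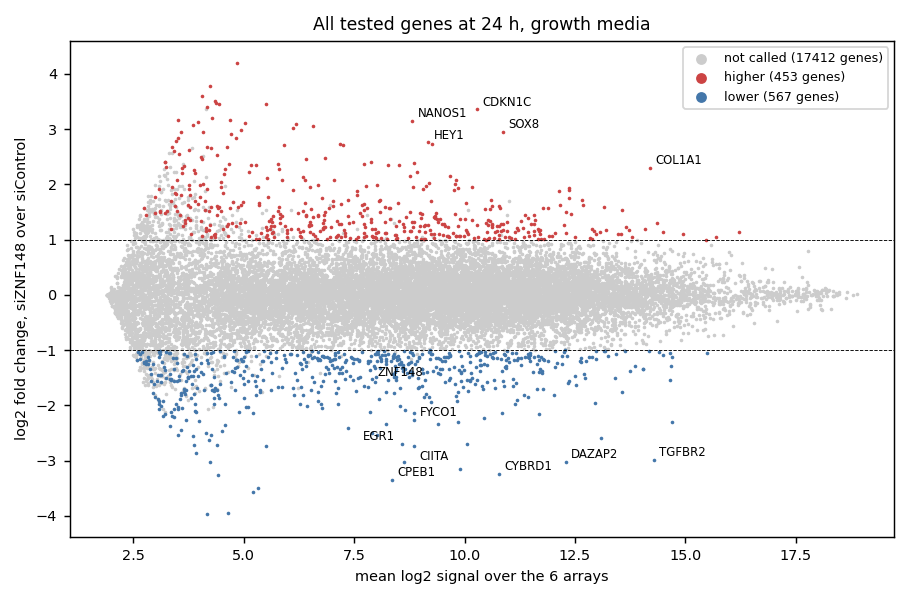
Log2 fold change of siZNF148 over siControl at 24 h against the mean log2 signal over the 6 arrays, 1 point per tested gene, red where called higher (453), blue where called lower (567) and grey otherwise, with dashed lines at 2-fold. The called genes spread over the whole range of signal, and the widest changes at the left are of dim genes.

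The 15 largest rises among genes above background on all 6 arrays were led by CDKN1C, which encodes the cyclin-dependent kinase inhibitor p57. Its signal was 8.56, 8.61 and 8.64 on the siControl arrays and 11.99, 12.11 and 11.79 on the siZNF148 arrays. All siZNF148 arrays lay far above all siControl arrays, with a log2 change of 3.36 (SE 0.64, limma adjusted p = 0.00044). NANOS1, a repressor of translation, rose by 3.15 on the log2 scale, SOX8, a SOX family transcription factor, by 2.95 and HEY1, a Notch target repressor, by 2.76. PKDCC, a secreted protein kinase, rose by 2.73, RGS16, which limits G protein signalling, by 2.72, and TMEM119 by 2.72. MLXIPL, the glucose-responsive factor ChREBP, rose by 2.48, PADI1, a peptidylarginine deiminase, by 2.40, MYL10, a myosin light chain, by 2.38, ACVR2B, an activin receptor, by 2.36 and INMT, a methyltransferase, by 2.36. The list ended with ANKRD33B at 2.35, the collagen gene COL1A1 at 2.30 and the keratin gene KRT80 at 2.23. As the choice required, each of the 15 had its 3 siZNF148 arrays above its 3 siControl arrays. A second probe of INMT gave 0.75.

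The 15 largest falls were led by CPEB1, which binds cytoplasmic polyadenylation elements. Its signal was 10.08, 10.03 and 9.97 on the siControl arrays and 6.32, 7.26 and 6.47 on the siZNF148 arrays, and it fell by 3.34 (SE 0.51, limma adjusted p = 4.2e-05). CYBRD1, an iron reductase, fell by 3.24, CEND1 by 3.15, the GTPase gene RAB32 by 3.02, DAZAP2 by 3.02 and TGFBR2, the type II receptor for TGF-beta, by 2.99. CIITA, the master coactivator of class II antigen presentation genes, fell by 2.74, EGR1, an immediate early factor, by 2.70, IER3IP1 by 2.69 and TNFRSF10D, a decoy receptor for TRAIL, by 2.58. The others were PNLIPRP3 (-2.53), SAMTOR, a sensor of S-adenosylmethionine upstream of mTORC1 (-2.49), VLDLR, a lipoprotein and reelin receptor (-2.41), ENO2, a glycolytic enolase (-2.33), and STC1, a secreted glycoprotein (-2.33). The second probe of DAZAP2 went the other way (0.21), and that of CYBRD1 gave a smaller change of -0.33. All 30 genes kept their direction and stayed past the threshold with normexp background correction, which shrinks the changes of dim probes.

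**Figure D2:**
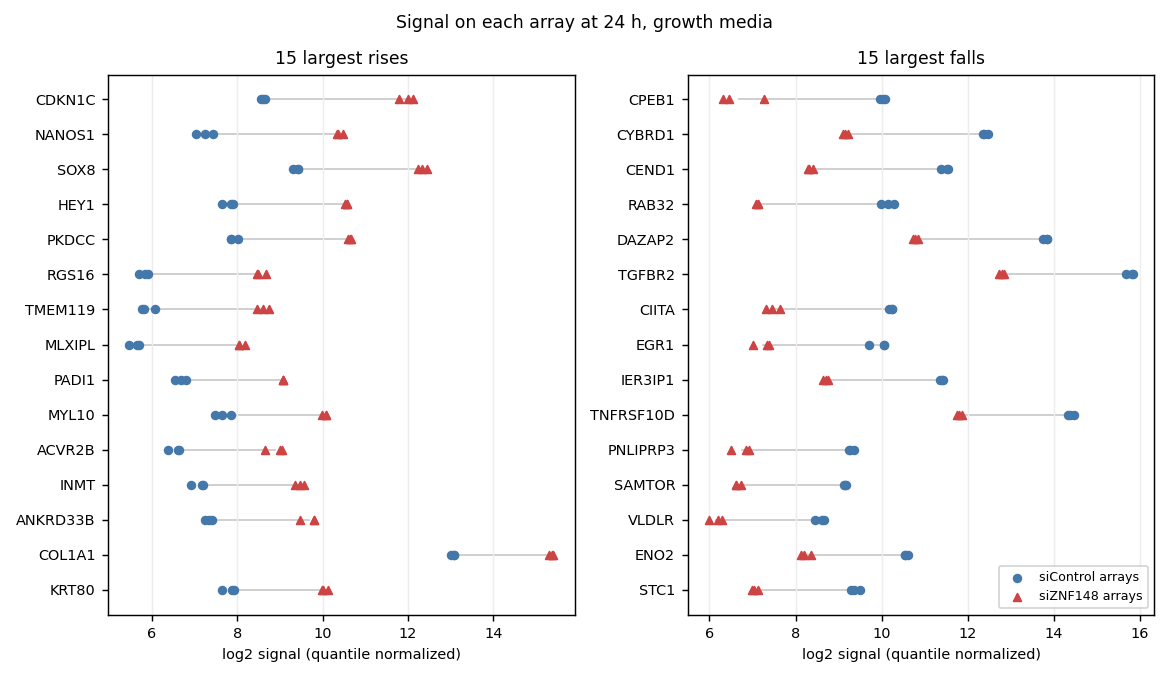
Log2 signal on each array at 24 h of the 15 largest rises (left) and the 15 largest falls (right), with 3 siControl arrays (blue circles) and 3 siZNF148 arrays (red triangles) per gene. The groups do not overlap for any of these genes, as the choice required, and the spread within a group is small beside the gap, which is 3.36 for CDKN1C and -3.34 for CPEB1 between the means.

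G-rich boxes are the kind of site that ZNF148 is known to bind. Promoter sequences from RefSeq (GRCh38.p14) were found for 14129 of the 18432 genes, and the 250 bases before each annotated start were searched on both strands. A run of 7 G, GGGGGGG, was found in 7.78% of all genes, in 5.76% of the 347 higher and in 8.33% of the 432 lower genes with a promoter. GGGGAGGGG was found in 12.0% of all genes, in 15.6% of the higher and in 13.2% of the lower genes. These shares are a description of letters in a short window, and the window says nothing of binding further away. The 100-base windows of a gene that rose, E2F2 (chr1:23531315-23531414, minus strand), and one that fell, DAZAP2 (chr12:51238618-51238717, plus strand), show what such a run looks like, with the runs in capitals.
E2F2: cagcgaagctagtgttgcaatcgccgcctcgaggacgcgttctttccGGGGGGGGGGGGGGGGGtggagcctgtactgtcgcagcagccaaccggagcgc
DAZAP2: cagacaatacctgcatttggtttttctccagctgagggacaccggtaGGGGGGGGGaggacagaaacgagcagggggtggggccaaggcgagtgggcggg

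Gene classes are given by lists of pathway members, written by hand with earlier results of these data known. Their counts describe these lists and are not an independent test. Each count of called members is to be read against 2.46% higher and 3.08% lower among all genes tested, and each median against -0.00, the median over all genes.

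**Figure D3:**
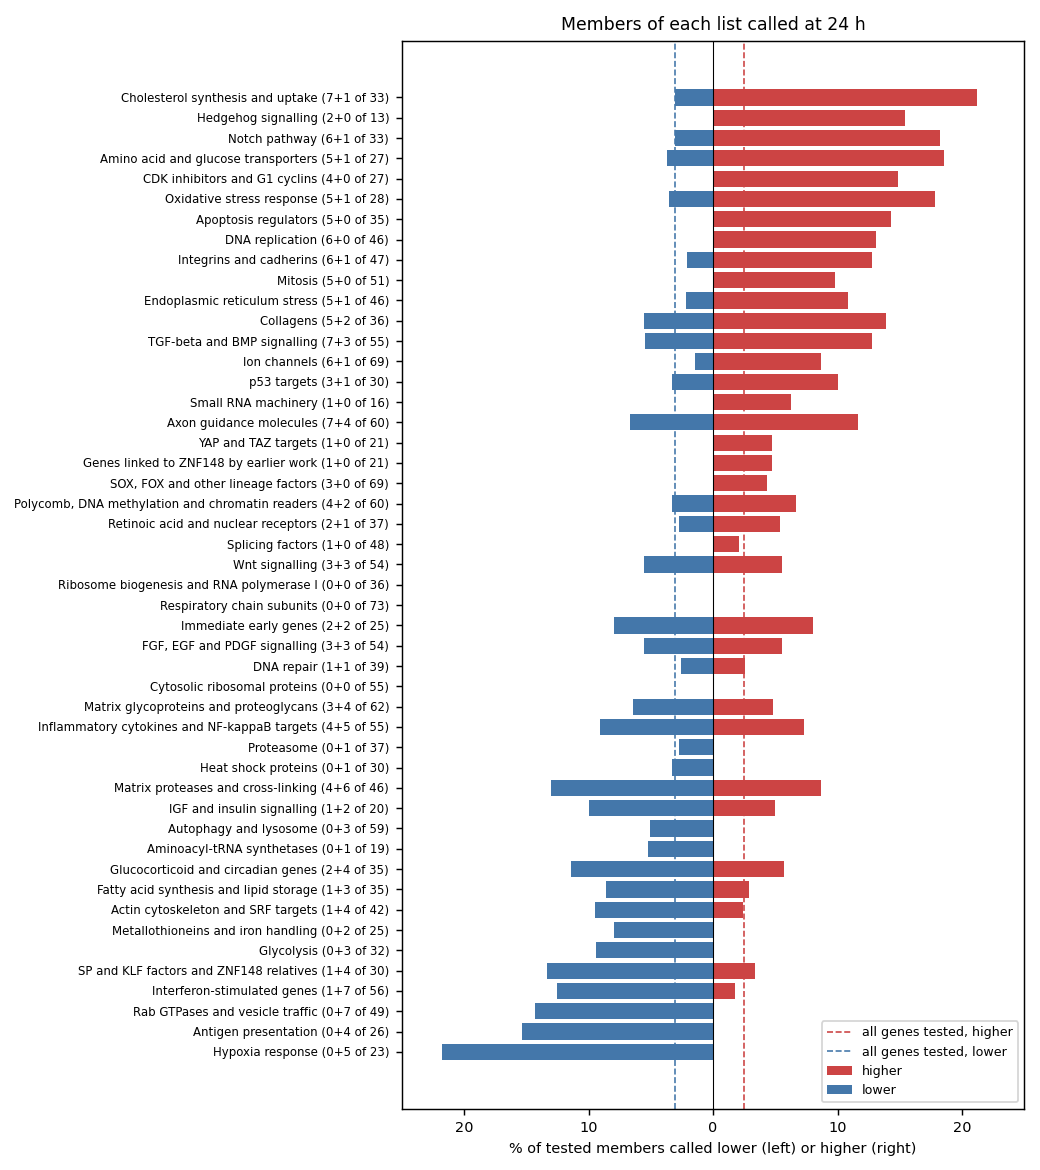
Share of the tested members of each list that were called higher (red, to the right) or lower (blue, to the left) at 24 h, with the number higher plus the number lower of the number tested in brackets and dashed lines at the shares over all genes. Cholesterol synthesis and uptake had 7 of 33 members higher and 1 lower, and hypoxia response had 5 of 23 lower and 0 higher.

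The Notch pathway carries signals between touching cells: a ligand on one cell leads to cleavage of a receptor on its neighbour, whose inner part enters the nucleus, binds the factor CSL (RBPJ) and switches on repressors of the HES and HEY families. Of 33 tested members, 6 rose and 1 fell, and the median log2 change was 0.22 (0.07 with normexp background correction and 0.14 with the slide row as a block). Among the ligands, JAG1 rose, with signals of 6.92, 6.95 and 7.10 on the siControl arrays and 8.67, 8.62 and 8.41 on the siZNF148 arrays. Its log2 change was 1.58 (SE 0.17, limma adjusted p = 3.4e-07), whereas DLL3 fell by 1.04 and DLL1 and JAG2 did not pass (0.17 and -0.19). Among the receptors, NOTCH3 went from 11.26, 11.11 and 11.24 to 12.99, 13.15 and 13.13. This was a log2 change of 1.89 (SE 0.35, limma adjusted p = 0.00035), while NOTCH1 (0.34, adjusted p = 0.06) and NOTCH2 (-0.14) did not pass. A further probe of JAG2 gave 1.74.

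The target repressors include the largest rise of the list above background on all arrays. HEY1 was at 7.90, 7.85 and 7.63 on the siControl arrays and at 10.58, 10.56 and 10.53 on the siZNF148 arrays, and HEYL went from 11.84, 11.73 and 11.81 to 13.49, 13.56 and 13.50. Both were far above the spread between arrays, with log2 changes of 2.76 (SE 0.48) and 1.72 (SE 0.11). HES1 was not above background on any siControl array and was above it on 2 of the 3 siZNF148 arrays. The mean of the siZNF148 arrays over the lowest signals measured above background gave 3.07-fold. This value rests mostly on the siZNF148 array at 8.93 and is not a firm minimum. The siZNF148 signals of HES1, 5.80, 8.93 and 3.73, were far apart. Its call (limma adjusted p = 0.047) was lost under 12 of 21 alternatives. Among the 21, the adjusted p went up to 0.33 and the log2 change down to 1.15. RBPJ itself fell by 0.50 (adjusted p = 2.8e-06), less than 2-fold. MAML3, a coactivator, was called higher by its brightest probe (1.23), while its lowest probe gave -0.94. With normexp background correction or the slide row as a block, 4 members were higher and 0 lower. At 48 h the pathway's median was 0.47, and 13 members were called higher and 4 lower, beside 11.7% and 12.2% of all genes.
TGGGAA, the core of the CSL site, occurred in the 250 bases before the start of 4 of 8 Notch target repressors with a promoter and of 24.9% of all genes. It was also found before 23.9% of the genes called higher and 30.8% of replication genes. The shares were 30.0% for ATF4 targets, 18.2% for class II antigen presentation genes and 13.3% for cholesterol synthesis enzymes. The windows of HES1 (chr3:194136017-194136116, plus strand) and HEYL (chr1:39639769-39639868, minus strand) are shown, with the core in capitals on either strand. Both genes were called higher, HES1 with the limits given above.
HES1: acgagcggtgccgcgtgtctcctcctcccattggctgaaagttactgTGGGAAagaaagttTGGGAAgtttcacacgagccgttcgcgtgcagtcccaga
HEYL: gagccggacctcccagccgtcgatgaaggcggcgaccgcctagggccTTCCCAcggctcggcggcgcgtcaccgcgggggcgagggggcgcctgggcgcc

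TGF-beta, activin and BMP ligands act through pairs of type I and type II receptors and SMAD factors, and TGF-beta is known to hold back myoblasts. The type II receptor for TGF-beta, TGFBR2, was at 15.67, 15.81 and 15.84 on the siControl arrays and at 12.80, 12.84 and 12.71 on the siZNF148 arrays. The fall of TGFBR2 was many times the spread between arrays, at -2.99 (SE 0.12, limma adjusted p = 3.9e-13). The receptors went in both directions. ACVR2B rose from 6.62, 6.38 and 6.60 to 9.04, 8.99 and 8.65, BMPR1B fell by 1.02, and TGFBR1 changed by 0.45, below the 2-fold threshold. Among ligands, BMP4 rose by 2.08 (SE 0.22), above background on 2 of 3 siControl arrays and on all siZNF148 arrays, while TGFB1 did not pass (-0.22). Of 16 inhibitors, 3 were called higher and 0 lower, with a median of 0.04: FST, which traps activin and myostatin, rose by 1.33, BAMBI, a decoy receptor, by 1.32, and the third was CHRDL1. Of 55 tested members in all, 7 rose and 3 fell (4 and 2 with normexp background correction). The other 3 that rose were INHBE and CHRDL1, each above background on 1 array of 6, and GDF6. SMAD3 and ID3 rose by 0.52 and 0.88, less than 2-fold.

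Single Hedgehog, Wnt and growth factor genes were called, with few calls in each list. GLI1 and PTCH1, which are both targets and components of the Hedgehog pathway, rose by 1.65 (SE 0.15) and 1.19 (SE 0.34), 2 of 13 tested members (1 with normexp background correction), and 0 fell. Of 54 Wnt members, 3 rose and 3 fell (2 and 2 with normexp background correction). FZD5, a receptor, rose by 1.72, the receptor tyrosine kinase ROR1 by 1.13 and the transcription factor TCF7L1 by 1.33, while FZD8 fell by 1.19 and KREMEN1, a receptor for the inhibitor DKK1, by 1.84. The ligand WNT2B was called lower but was not above background on any of the 6 arrays. Of 54 FGF, EGF and PDGF genes, 3 rose and 3 fell: PDGFA rose by 1.47, EREG fell by 1.34, FGF5 by 1.19 and the feedback inhibitor SPRED3 by 1.11, and the calls of PDGFB and FGF10 rest on 1 array of 6 above background. With normexp background correction 1 member of this list rose and 0 fell. Of 20 IGF and insulin genes, 1 rose and 2 fell (0 and 2 with normexp background correction), with a median of 0.06. IGF1R, the receptor for insulin-like growth factors, rose by 1.05, and GRB14, an adaptor that restrains insulin receptor signalling, fell by 1.48.

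DNA replication starts when CDC6 and CDT1 load the MCM helicase on origins, under control of E2F factors, and CDC25A and cyclin A act at the entry into S phase and through it. Of 46 replication genes, 6 were called higher (CDC6, CDT1, GINS2, TYMS, POLA1 and FEN1) and 0 lower, and 37 were higher and 2 lower at an adjusted p under 0.05 alone. The median log2 change was 0.69, with array medians of 0.71, 0.69 and 0.67 on the siZNF148 arrays and between -0.01 and 0.01 on the siControl arrays. CDT1 was at 11.64, 11.61 and 11.58 on the siControl arrays and at 12.87, 12.92 and 12.83 on the siZNF148 arrays, a log2 change of 1.26 (SE 0.23, limma adjusted p = 0.00028). TYMS, which makes thymidylate, went from 14.38, 14.45 and 14.35 to 15.56, 15.57 and 15.35 (log2 change 1.10, SE 0.10). Other members were higher by less than 2-fold, such as PCNA (0.94), MCM5 (0.93) and MCM2 (0.75). With scaling to the 75th percentile, which shifts the median of all genes by 0.06, 11 members were called.

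Of 51 mitosis genes, 5 were called higher (MYBL2, CDC25A, CCNA2, CENPK and SPC24) and 0 lower, with a median of 0.48, and 3 were higher with normexp background correction. MYBL2, the E2F target and late cell cycle factor B-Myb, rose by 1.91 (SE 0.38) and CDC25A, a phosphatase that activates cyclin-dependent kinases, by 1.56 (SE 0.25). At a limma adjusted p under 0.05 alone, 22 of the 51 were higher and 1 lower. Of the 26 spindle or kinetochore genes among them, 8 were higher and 1 lower at that level, with a median of 0.39. Among late genes, CCNB1, BUB1 and TOP2A did not pass (0.10, 0.03 and 0.30). Of 27 inhibitors, cyclins and pocket proteins of G1, 4 rose and 0 fell. CDK6 rose from 11.37, 11.50 and 11.42 to 13.40, 13.40 and 13.17 (log2 change 1.89) and E2F2 from 10.02, 10.08 and 9.95 to 11.58, 11.69 and 11.49 (log2 change 1.57), together with E2F8, an E2F family repressor (1.18). The fourth was CDKN1C, described above, which encodes an inhibitor of the cycle. The inhibitor CDKN1B rose by 0.83 and CDKN1A fell by 0.61, both below the threshold. LMNB1, a nuclear lamina gene of cycling cells, rose by 1.18.
The letters GGCGGGA, the core of many E2F sites, occurred before 21 of 39 DNA replication genes with a promoter (53.8%) and 23.0% of all genes. They were also found before 9 of 20 ATF4 targets (45.0%) and 6 of 15 cholesterol synthesis enzymes, and before 25.4% of the genes called higher. The windows of CDC6 (chr17:40287779-40287878), CDT1 (chr16:88803689-88803788) and MYBL2 (chr20:43667014-43667113), all on the plus strand, are shown because these genes rose, with the core in capitals.
CDC6: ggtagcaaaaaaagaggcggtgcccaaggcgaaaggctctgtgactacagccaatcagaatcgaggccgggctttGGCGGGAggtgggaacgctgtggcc
CDT1: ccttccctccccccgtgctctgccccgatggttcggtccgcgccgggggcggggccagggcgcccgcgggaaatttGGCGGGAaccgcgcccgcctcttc
MYBL2: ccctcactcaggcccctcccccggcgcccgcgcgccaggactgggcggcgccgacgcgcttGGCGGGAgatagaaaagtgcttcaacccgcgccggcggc

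Cholesterol synthesis is controlled by SREBP2, which is held in the endoplasmic reticulum by INSIG proteins when sterols are plentiful. Of 20 tested synthesis enzymes, 5 were called higher and 0 lower, and 17 were higher and 0 lower at an adjusted p under 0.05 alone, beside 15.7% and 16.8% of all genes. Their median was 0.68, with array medians of 0.73, 0.69 and 0.63 on the siZNF148 arrays. HMGCS1, HMG-CoA synthase, was at 9.14, 9.23 and 9.32 on the siControl arrays and at 10.51, 10.59 and 10.35 on the siZNF148 arrays, a log2 change of 1.25 (SE 0.19, limma adjusted p = 2.9e-05). SQLE and IDI1 rose by 1.16 and 1.15. INSIG1 rose from 12.71, 12.87 and 12.85 to 14.43, 14.34 and 14.24 (log2 change 1.53, SE 0.16).

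Of 13 genes of uptake and regulation, 2 rose, among them INSIG1, and 1 fell. ABCA1, the cholesterol exporter, fell from 10.69, 10.78 and 10.67 to 8.95, 8.91 and 8.82 (log2 change -1.82, SE 0.09, limma adjusted p = 6.1e-12), with both of its probes lower. SREBF2 rose by 0.57 and SREBF1 did not pass (0.02). Of 35 fatty acid and lipid storage genes, 1 rose, MLXIPL, and 3 fell: PLIN2, which coats lipid droplets, by 1.54, ANGPTL4, an inhibitor of lipoprotein lipase, by 1.38 and ACSL4 by 1.00.
CCAAT, on either strand, occurred before 13 of 15 cholesterol synthesis genes with a promoter (86.7%) and 40.3% of all genes, and the sterol element letters TCACNCCAC before 0 of 15 and 1.11% of all. CCAAT was also found before 10 of 11 class II antigen presentation genes (90.9%), a list whose median was lower, and before 65.0% of ATF4 targets, 62.5% of Notch target repressors and 61.5% of replication genes. The windows of HMGCS1 (chr5:43313516-43313615, minus strand), IDI1 (chr10:1048967-1049066, minus strand) and INSIG1 (chr7:155297660-155297759, plus strand), genes that rose, have the CCAAT letters in capitals, read as ATTGG on the opposite strand.
HMGCS1: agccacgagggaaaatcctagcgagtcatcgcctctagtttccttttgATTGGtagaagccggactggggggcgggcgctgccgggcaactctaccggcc
IDI1: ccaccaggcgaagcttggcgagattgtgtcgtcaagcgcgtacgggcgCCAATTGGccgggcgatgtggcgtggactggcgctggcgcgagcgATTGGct
INSIG1: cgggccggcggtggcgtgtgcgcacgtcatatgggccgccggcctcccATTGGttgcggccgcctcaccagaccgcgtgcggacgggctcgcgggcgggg

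**Figure D4:**
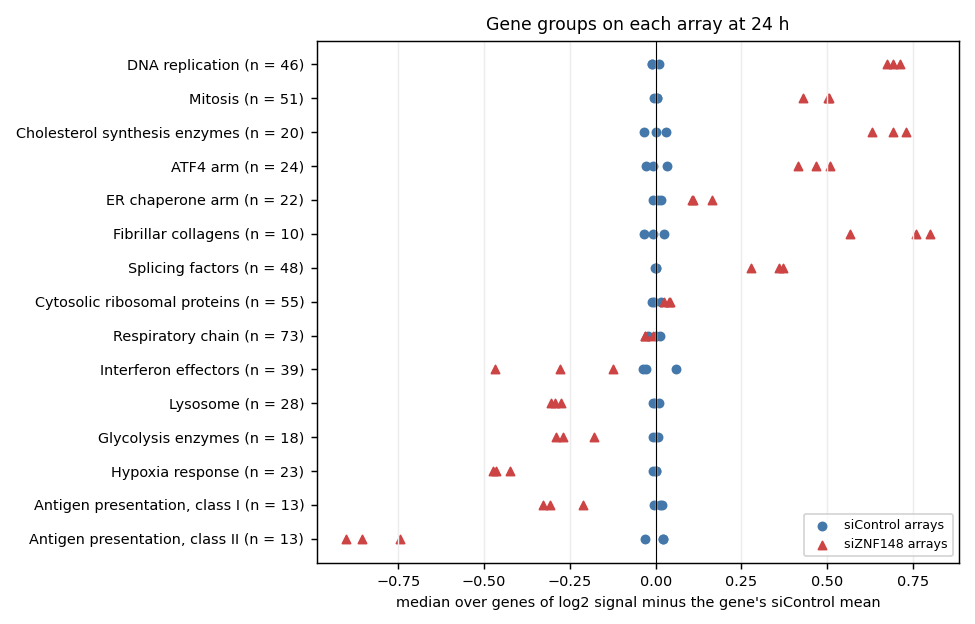
Median over the genes of each group of the log2 signal minus the siControl mean of the same gene, on each of the 6 arrays (siControl in blue circles, siZNF148 in red triangles, n is the number of tested genes). DNA replication genes lie at 0.67 to 0.71 on the siZNF148 arrays and class II genes at -0.90 to -0.75, whereas ribosomal proteins and the respiratory chain stay beside the siControl arrays.

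Targets of ATF4, the factor that answers lack of amino acids and stress of the endoplasmic reticulum, form 1 arm of that stress response and chaperones the other. Of 24 ATF4 targets, 5 rose and 1 fell, and 15 were higher at an adjusted p under 0.05 alone, with a median of 0.44. Of 22 chaperone and folding genes, 0 were called in either direction, and their median was 0.12. CHAC1, which degrades glutathione, went from 8.88, 8.81 and 8.63 on the siControl arrays to 10.81, 10.85 and 10.90 on the siZNF148 arrays (log2 change 2.08, SE 0.31, limma adjusted p = 3.4e-05). SLC7A5, which imports leucine, rose by 1.90 (SE 0.43), SLC7A11, the cystine carrier, by 1.56 (SE 0.14), PSAT1, of serine synthesis, by 1.34 and ASNS, asparagine synthetase, by 1.10. ATF4 itself rose by 0.57, HSPA5, the main chaperone of the endoplasmic reticulum, by 0.83 and TRIB3 by 0.78, all under 2-fold, and DDIT3 did not pass (-0.02). The target that fell was VLDLR.

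Of 27 amino acid and glucose carriers, 5 rose and 1 fell: beside SLC7A5 and SLC7A11, the glutamine carrier SLC1A5 rose by 1.25 (SE 0.07), the arginine carrier SLC7A2 by 1.35 and the glycine carrier SLC6A9 by 1.30, and the glutamate carrier SLC1A1 fell by 1.14. SLC3A2, the partner chain of SLC7A5, rose by 0.89. Of 28 oxidative stress genes, 5 rose and 1 fell. TXNRD1, thioredoxin reductase, rose by 1.25, GCLC, of glutathione synthesis, by 1.24, OSGIN1 by 1.38 and AKR1B10 by 1.06, SLC7A11 being on this list too, while HMOX1, heme oxygenase, fell by 1.08. Among 19 tRNA synthetases HARS1 alone was called, with a fall of 1.24.
TGATGNAA, letters of the composite site that ATF4 binds, occurred before 3 of 20 ATF4 targets with a promoter and 2.75% of all genes. The windows of CHAC1 (chr15:40953221-40953320, plus strand) and ASNS (chr7:97872423-97872522, minus strand), which rose, have these letters in capitals on either strand.
CHAC1: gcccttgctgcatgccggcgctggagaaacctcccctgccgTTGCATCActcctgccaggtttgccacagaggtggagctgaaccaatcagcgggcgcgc
ASNS: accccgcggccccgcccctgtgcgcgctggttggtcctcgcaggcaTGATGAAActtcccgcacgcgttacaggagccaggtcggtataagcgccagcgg

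Cells short of oxygen stabilize HIF-1, which raises glycolysis and vessel growth factors. Of 23 hypoxia genes, 0 rose and 5 fell (3 with normexp background correction or with scaling to the 75th percentile), and 11 were lower and 2 higher at an adjusted p under 0.05 alone, with a median of -0.46. HIF1A, the regulated subunit, was at 12.75, 12.82 and 12.74 on the siControl arrays and at 11.82, 11.79 and 11.68 on the siZNF148 arrays, and it fell by 1.00 on the log2 scale (SE 0.10, limma adjusted p = 9.9e-08), at the threshold. MXI1, a MYC antagonist, fell by 1.85 with all 3 of its probes, ANGPTL4 by 1.38, CA9, a carbonic anhydrase, by 1.12 and BNIP3L, a mitophagy receptor, by 1.01. VEGFA (-0.59) and PDK1 (-0.54) were lower by less than 2-fold. Of 32 glycolysis genes, 0 rose and 3 fell, and 14 were lower at an adjusted p under 0.05 alone. ENO2 went from 10.53, 10.62 and 10.54 to 8.13, 8.20 and 8.37, PFKFB4 fell by 1.25 and PFKM, the muscle phosphofructokinase, by 1.01, while the enzymes ENO1 (0.07) and LDHA (-0.05) did not pass. Of 25 genes of metal handling, CYBRD1 and the iron exporter SLC40A1 (-1.14) fell (1 of the pair with normexp background correction) and 0 rose.

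Class II molecules, which immune cells use to show peptides, are switched on by CIITA, and class I genes by the related NLRC5. CIITA was at 10.24, 10.24 and 10.16 on the siControl arrays and at 7.46, 7.33 and 7.65 on the siZNF148 arrays (log2 change -2.74, SE 0.59, limma adjusted p = 0.0014), with both probes lower. Of 13 tested class II genes, 3 fell and 0 rose, and 11 were lower at an adjusted p under 0.05 alone, with a median of -0.84. HLA-DMB, which loads peptides, fell by 1.11, HLA-DOA by 1.05, HLA-DRA by 0.86 and HLA-DMA by 0.78, the last 2 below the threshold. The call of HLA-DOA (limma adjusted p = 0.04) was lost under 11 of 22 alternatives, among which the adjusted p went up to 0.13. Of the 26 genes of both classes, 4 were called lower, and 2 with normexp background correction or with the slide row as a block. Of 13 class I genes, NLRC5 fell by 1.02 with 1 probe (0.25 with the other) and 0 rose, and B2M (-0.11) did not pass. PSMB9, a subunit of the immunoproteasome, fell by 1.31. RFX5, whose product is part of the complex that CIITA joins at class II promoters, fell by 1.36 and was named after its values were seen. The immune cell markers gave no called gene among 6 tested.

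Of 56 interferon-stimulated genes, 1 rose and 7 fell (1 and 2 with normexp background correction), and 21 were lower and 3 higher at an adjusted p under 0.05 alone, with a median of -0.20. IFNAR1, a chain of the type I interferon receptor, went from 9.82, 9.77 and 9.75 on the siControl arrays to 8.03, 8.20 and 8.05 on the siZNF148 arrays (log2 change -1.69, SE 0.12, limma adjusted p = 8.2e-10). IRF9, a subunit of the interferon-activated factor, fell by 1.14 and OASL by 1.20, while MX2, XAF1 and IRF2 were above background on 0 siZNF148 arrays, and the fall of XAF1 was at least 1.93-fold. IFIT1 was the exception, at 11.61, 11.78 and 11.63 on the siControl arrays and 13.12, 13.19 and 13.13 on the siZNF148 arrays. Medians over the 39 effectors differed among arrays: -0.28, -0.47 and -0.12 on the siZNF148 arrays. MX1 was 8.06 on siControl replicate 2 and 6.77 and 6.84 on the other siControl arrays, and did not pass (-0.60). Of 55 inflammatory and NF-kappaB genes, 4 rose and 5 fell (1 and 5 with normexp background correction). The NF-kappaB subunits RELA and RELB fell by 1.53 and 1.05, IL33 by 1.51, IRAK2 by 1.18 and the cytokine LIF by 1.09. IL7R rose by 1.95, BIRC3 by 1.27 and VCAM1 by 1.36. The 2 probes of IL6 were opposed, at 1.00 and -1.16.

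Of 49 Rab GTPases, which mark and move vesicles, 0 rose and 7 fell (4 with normexp background correction). RAB32, known for traffic to lysosome-related organelles, was at 10.14, 9.98 and 10.28 on the siControl arrays and at 7.12, 7.08 and 7.14 on the siZNF148 arrays (log2 change -3.02, SE 0.13, limma adjusted p = 1.3e-12). RAB7B fell by 1.37, RAB3A by 1.15 and RAB22A by 1.13, while RAB6B and RAB39B were above background on 2 siControl arrays only. Of 31 autophagy genes, 2 fell: FYCO1, an adaptor that ties vesicles to kinesin, from 10.02, 9.96 and 9.98 to 7.78, 7.70 and 7.68, and BECN1, of the kinase complex that starts autophagosomes, by 1.66 (SE 0.05). The groups were far apart for both. Of 28 lysosome genes, 1 fell, and 15 were lower and 1 higher at an adjusted p under 0.05 alone, with a median of -0.30.

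Of 36 collagens, 5 rose and 2 fell (2 and 0 with normexp background correction). COL1A1, the main chain of type I collagen, was at 13.01, 13.08 and 13.08 on the siControl arrays and at 15.40, 15.37 and 15.30 on the siZNF148 arrays, and COL3A1 went from 10.02, 9.94 and 9.97 to 11.53, 11.61 and 11.62. Their log2 changes were 2.30 (SE 0.30) and 1.61 (SE 0.12), and 6 of 10 fibrillar members were higher and 0 lower at an adjusted p under 0.05 alone, with a median of 0.71. COL1A2, the partner chain of COL1A1, did not pass (-0.10, adjusted p = 0.33). Of 7 tested fibroblast markers, the collagens COL3A1 and COL15A1 (1.47) were called higher and 0 lower. DCN (-0.64), LUM (-0.33), THY1 (-0.37) and PDGFRA (0.50) changed by less than 2-fold, TCF21 was above background on no array, and the part of fibroblast-like cells in the collagen values was not tested. SERPINH1, the collagen chaperone, rose by 1.19, SPARC by 1.04, NID1 by 1.29 and TIMP3, a protease inhibitor, by 1.49. Of 46 matrix proteases and cross-linking genes, 4 rose, among them SERPINH1 and TIMP3, and 6 fell, among them MMP14 by 1.09, PLAUR by 1.02, ADAMTS1 by 1.15, ADAMTS5 by 1.08 and ADAMTS6 by 1.34, and the hyaluronan synthases HAS1 and HAS2 fell by 1.59 and 1.18. CD44, the hyaluronan receptor, fell by 1.05 with 1 probe and changed by 0.27 with the other. CCN2, a YAP target, rose by 1.04.

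Of 47 integrins and cadherins, 6 rose and 1 fell: ITGB8 rose by 1.40, PCDH18 by 1.45 and PCDH7 by 1.13, and ICAM5 fell by 1.42. Of 60 axon guidance genes, 7 rose and 4 fell. EFNB2 rose by 1.27, its receptor EPHB3 by 1.33 and PLXND1 by 1.29, while PLXNB3 fell by 1.58 and ROBO4 by 1.08. SEMA3D and EPHA3, called in opposite directions, were not above background on any array. Of 69 ion channels, 6 rose and 1 fell, with a median of -0.19. The split of the channels was 6 and 6 when the 6 arrays were normalized and fitted alone, 5 and 3 with scaling to the 75th percentile and 6 and 2 with the slide row as a block. With normexp background correction 2 members of each of these lists were higher. KCNN3, a potassium channel opened by calcium, rose by 1.98 and ITPR1, which releases calcium from the endoplasmic reticulum, fell from 12.14, 12.13 and 12.11 to 10.13, 10.17 and 10.14. Of 42 genes of the actin cytoskeleton, 1 rose and 4 fell: MYLK fell by 1.22, RND3 by 1.20 and CFL2 by 1.19, and CNN1 was called lower. CNN1 was at 4.91, 6.77 and 5.04 on the siControl arrays and above background on 0 siZNF148 arrays. Its bound of 1.54-fold rests mostly on the siControl array at 6.77. The change of CNN1 was -0.62 in the first slide row and -3.56 in the second, and its call was lost under 7 of 22 alternatives.

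Among transcription factors, EGR1 was at 10.05, 10.05 and 9.70 on the siControl arrays and at 7.01, 7.33 and 7.38 on the siZNF148 arrays, and KLF2 went from 10.33, 10.39 and 10.35 to 8.81, 8.71 and 8.79. FOS (-0.94) and JUN (-0.75) were lower by less than 2-fold, whereas ATF3 rose by 1.96 and BTG2 by 1.75, so that 2 of 25 immediate early genes rose and 2 fell. For ATF3, 2 of 4 tested probes were called higher, and the lowest probe gave 0.21. Of 30 SP and KLF factors and relatives of ZNF148, which bind G- or C-rich sites, 4 fell, and MAZ rose by 1.00, at the threshold. The 4 were EGR1, KLF2, KLF8 and ZNF148 itself, which the siRNA targets and whose fall is part of the design. The close relative ZNF281 rose by 0.42 and SP1 by 0.36, and SP3 did not pass (-0.04). Of 21 clock genes, 0 rose and 3 fell: CIART by 1.77, RORA by 1.41 and BHLHE41 by 1.34. Of 69 lineage factors, 3 rose and 0 fell. SOX8 went from 9.42, 9.31 and 9.43 to 12.33, 12.44 and 12.24, SIX2 rose by 1.26, and GATA6, above background on no siControl array and all siZNF148 arrays, rose at least 2.27-fold. LIN28B, which blocks let-7 maturation, was likewise above background on the 3 siZNF148 arrays only and rose at least 3.75-fold. Of 60 chromatin genes, 4 rose and 2 fell: among these TET1 rose by 1.69, DNMT3B by 1.58 and CBX2 by 1.46 (0.08 with a second probe), and CBX7 and PHC3 fell by 1.08 (-0.03 with a second probe) and 1.07. Of 21 genes linked to ZNF148 by earlier work, COL1A1 was called, and 2 were with scaling to the 75th percentile or the slide row as a block.

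Of 35 apoptosis regulators, 5 rose (3 with normexp background correction) and 0 fell. The killers PMAIP1 (NOXA), BBC3 (PUMA) and BMF rose by 1.60, 1.28 and 1.71, and the protectors BCL2 and BIRC3 by 1.20 and 1.27. Of 30 p53 targets, 3 rose, BTG2, PLK2 (1.14) and BBC3, and TNFRSF10B, a TRAIL receptor, fell by 1.03. MDM2 rose by 0.78 and CDKN1A fell by 0.61, less than 2-fold. The decoy TNFRSF10D, described above, went from 14.45, 14.38 and 14.32 to 11.79, 11.85 and 11.75.

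Some housekeeping classes gave no call. Of 55 cytosolic ribosomal proteins, 0 were called and 0 passed an adjusted p of 0.05 alone in limma, with a median of 0.04. Of 73 respiratory chain subunits, 0 were called, 5 were higher and 7 lower at an adjusted p under 0.05 alone, and the median was -0.03. Of 36 genes of ribosome biogenesis, 0 were called, but 16 were higher and 2 lower at that level. Splicing factors had 1 call of 48, PTBP3 (1.06), with 25 higher and 1 lower at that level and a median of 0.36. Of 37 proteasome subunits PSMB9 alone was called.

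The effect at 24 h was then set beside the effects at 48 h and 96 h in growth media, each against siControl arrays of its own time. The later cells were confluent, and their arrays were on other slides, so time, confluence and slide cannot be told apart. At 96 h there were 2 siControl and 3 siZNF148 arrays in growth media. Both siControl arrays were on 1 slide and 2 of the siZNF148 arrays on another, so siRNA and slide are partly mixed there. Of the 453 genes higher at 24 h, 223 were again higher at 48 h and 178 at 96 h, and 50 and 56 were called lower, beside 11.7% of all genes called higher and 12.2% called lower at 48 h and 12.3% and 12.4% at 96 h. Of the 567 genes lower at 24 h, 258 were again lower at 48 h and 220 at 96 h, and 47 and 76 were called higher. The call was the same at all 3 times for 162 higher and 192 lower genes, and 152 and 197 were called at neither later time. The difference between the effects, tested as a contrast of contrasts, passed the threshold for 394 of the 1020 called genes at 48 h and 440 at 96 h, beside 20.6% and 22.9% of all genes. Without siControl replicate 1 at 48 h, an array that stands apart from its group, these counts were 515 and 497, among the 496 higher and 584 lower genes then called at 24 h. The effect at 24 h entered both the choice of the called genes and the difference tested. A share above that of all genes is therefore partly built in.

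The median of the 46 replication genes went from 0.69 to -1.87 and then -2.19 over the 3 times, and the difference from 24 h passed for 40 members at 48 h and 43 at 96 h. For the 51 mitosis genes the medians were 0.48, -3.25 and -4.70, and the difference passed for all 51 at both times. Without siControl replicate 1 at 48 h the medians at 48 h were -2.01 and -3.45. CCNA2 is an example: it rose by 1.04 at 24 h and was at -2.93 at 48 h and -4.26 at 96 h. CDKN1C and CDK6 were higher at 48 h too, at 4.18 and 1.80.

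The median of the 56 interferon-stimulated genes went from -0.20 to -0.01 and then 2.60, when 42 of 56 were called higher, and the difference between 96 h and 24 h passed for 42. MX2, dim at 24 h, reached a log2 change of 6.78 at 96 h, and OASL went from -1.20 to 4.73. Class II genes were lower at each later time, with medians of -0.84, -3.14 and -4.43, and CIITA went from -2.74 to -5.18 and -5.30. Cholesterol synthesis enzymes stayed higher at 48 h (median 0.81) and less so at 96 h (0.30). Some genes that were named for a fall at 24 h had smaller falls or none later. FYCO1 was at -2.26 first and at -0.37 and -0.22 later, BECN1 at -1.66, -0.73 and -0.20, and EGR1 at -2.70, -0.39 and 0.53. SOX8 rose by 2.95 at 24 h and was at 1.26 and -0.42 later, while COL1A1 stayed level, at 2.30, 2.42 and 2.62.

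**Figure D5:**
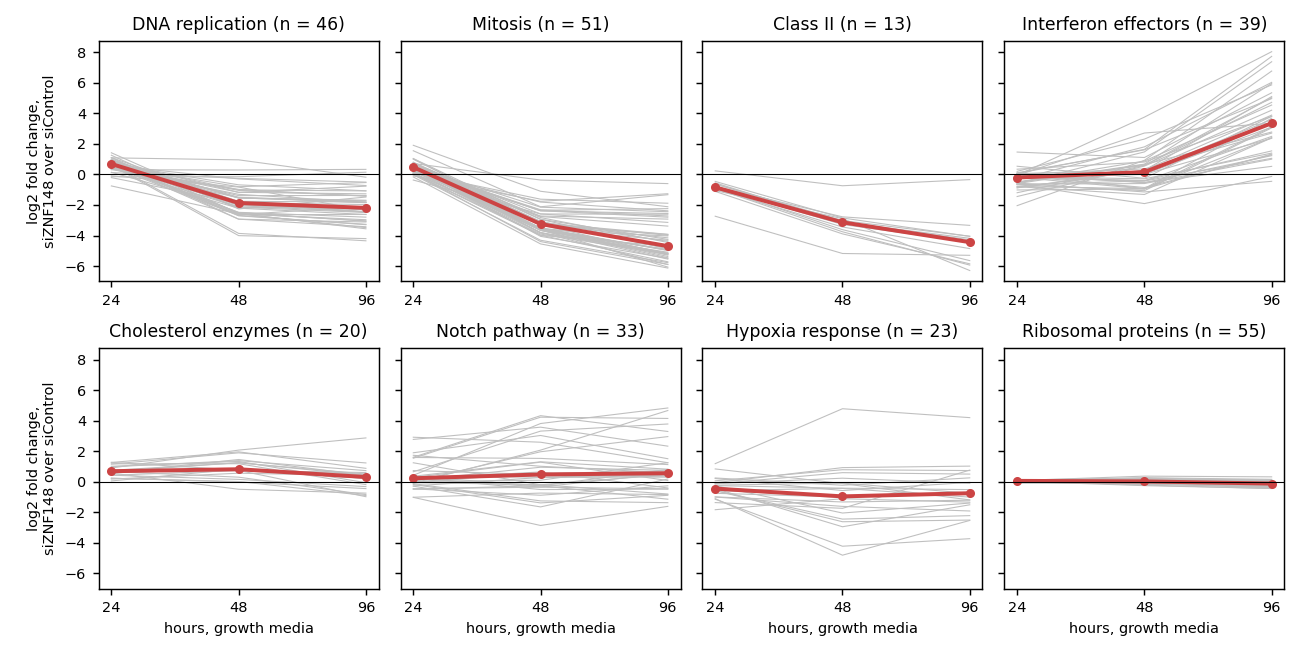
Log2 fold change of siZNF148 over siControl at 24, 48 and 96 h in growth media for the members of 8 gene groups, 1 grey line per gene and the median in red, with n tested genes in each. Replication and mitosis genes cross from above 0 at 24 h to below it later (medians 0.69 to -2.19 and 0.48 to -4.70 at 96 h), interferon effectors rise at 96 h, and ribosomal proteins stay near 0.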

How the data were processed

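RNA of LHCN-M2 cells was labelled with Cy3 and hybridized to 1-colour Agilent arrays of 62976 spots (2075 control spots). Signals were read from the scans by the authors in Agilent Feature Extraction (10.7.3.1 in the submitters' processing notes). The intensity values deposited by the authors are background-subtracted signals on a linear scale, not scaled between arrays, and the deposited matrix of log2 values, normalized by the authors, served as an alternative. Each of its 29 columns correlated best with its own array. The column median was 4.28.

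Control and outlier spots were left out, spots of the 58201 probes were averaged on the log2 scale, and arrays were quantile-normalized as in the study's methods. A probe entered the test when 2 or more arrays had it well above background (38839 probes), with limma 3.58.1 in R 4.3.3 (lmFit and eBayes, 29 arrays, 10 group means, two-sided, Benjamini-Hochberg over all probes). As the groups share 1 estimate of the spread, the later arrays enter the SE at 24 h. RefSeq accessions named 31104 probes of 22439 genes, and where several probes of a gene were tested, the brightest on average stands for it. Of 53 named genes with more than 1 tested probe, 23 had all probes called the same way and 6 had probes of opposite sign. Where a gene was below background on all arrays of a group, its change is a bound, in which dim signals are set to the smallest value that counted as above background on the same array, and no bound under 1 is given.

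Named were ZNF148, the 15 largest rises and 15 largest falls among called genes above background on all 6 arrays without overlap, up to 6 called members per direction of each of 48 lists, and members needed to say what did not pass. The members and lists were chosen with earlier results of these data known. Replicates were grouped by title. Same-numbered replicates did not deviate together (correlations -0.10, 0.07 and -0.04), so they were not paired. Alternatives were normexp, 75th percentile scaling, the authors' values, other filters, variances, weights, samples and thresholds, the replicate block, single arrays left out, the methods' test and a slide row block, added after the file headers were seen. The closing section gives the counts that moved and the range of the rest. Sequences and gene names are those of RefSeq (GRCh38.p14). As nothing more is said of the cultures, p-values measure the spread between these arrays. Promoters were searched with Python 3.11.15. Comparisons in differentiation media were not used here. Some named genes are not reported here.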

Additional observations from a re-analysis of the deposited data

Results flagged for a closer look

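Genes named for a change at 24 h were looked at again where the call at 48 h or 96 h was opposite and the difference between the effects passed the threshold in limma. There were 22 such genes at 48 h and 26 at 96 h among those reported here. Each value below is the log2 effect at the later time minus that at 24 h. Time, confluence, slide and scan cannot be told apart in these differences. The effect at 96 h rests on 2 siControl arrays, and siRNA and slide are partly mixed in it.

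The cell cycle and replication genes were higher at 24 h and lower later at both times. CCNA2 differed by -3.98 at 48 h and -5.30 at 96 h. CDC25A differed by -3.67 at 48 h and -2.88 at 96 h. CDC6 differed by -3.68 at 48 h and -2.90 at 96 h. CDT1 differed by -3.81 at 48 h and -4.82 at 96 h. CENPK differed by -4.25 at 48 h and -5.01 at 96 h. E2F2 differed by -3.38 at 48 h and -4.64 at 96 h. FEN1 differed by -3.18 at 48 h and -3.17 at 96 h. GINS2 differed by -2.89 at 48 h and -3.57 at 96 h. LMNB1 differed by -2.81 at 48 h and -4.13 at 96 h. MYBL2 differed by -3.01 at 48 h and -4.03 at 96 h. SPC24 differed by -4.17 at 48 h and -4.93 at 96 h. TYMS differed by -3.68 at 48 h and -4.58 at 96 h.

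Other genes that were higher at 24 h and lower later were of adhesion, survival and signalling. BCL2 differed by -2.48 at 48 h. BIRC3 differed by -2.75 at 48 h and -2.36 at 96 h. CDH4 differed by -2.81 at 48 h. CHRDL1 differed by -5.15 at 48 h and -5.59 at 96 h. IL7R differed by -3.65 at 48 h. PCDH18 differed by -2.60 at 96 h. CHRDL1 was above background on 1 of the 6 arrays at 24 h, and its call at 24 h was lost under 13 of 21 alternatives. The call of CDH4 at 24 h (limma adjusted p = 0.048) was lost under 11 of 22 alternatives.

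Genes that were lower at 24 h and higher later included interferon-stimulated genes. ADAMTS5 differed by 2.65 at 48 h and 2.46 at 96 h. CFL2 differed by 2.35 at 48 h. CRYAB differed by 3.49 at 48 h and 3.98 at 96 h. KLF2 differed by 2.79 at 48 h and 2.65 at 96 h. WNT2B differed by 2.82 at 48 h. CNN1 differed by 5.26 at 96 h. GRB14 differed by 2.54 at 96 h. HAS1 differed by 2.72 at 96 h. IRF9 differed by 3.09 at 96 h. KREMEN1 differed by 3.24 at 96 h. MX2 differed by 8.82 at 96 h. OASL differed by 5.93 at 96 h. XAF1 differed by 5.66 at 96 h. WNT2B was above background on none of the 6 arrays at 24 h, and MX2, XAF1 and CNN1 on none of the 3 siZNF148 arrays, MX2 also on only 1 siControl array. The differences of these 4 genes are fitted values that rest on signals near background at 24 h, not measured sizes.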

How the results depend on the processing

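The 453 higher and 567 lower genes became 200 and 253 with normexp background correction, and the 394 and 440 called genes whose effect differed at 48 h and 96 h became 154 and 167. With no fold threshold these counts were 2886, 3088, 3621 and 3790, by the construction of that setting. The other alternatives that kept all arrays of the comparison gave 370 to 538 higher and 437 to 674 lower genes, and 316 to 522 and 353 to 575 genes whose effect differed at 48 h and 96 h. The lowest of each came with a stricter filter on dim probes and the highest with array weights, all within 1.5 times the main count. ZNF148 was called lower under every alternative run. Leaving out 1 array of the 24 h groups or siControl replicate 1 at 48 h gave 403 to 496 higher and 520 to 626 lower genes, 373 to 515 and 411 to 497 genes whose effect differed at 48 h and 96 h, and -1.60 to -1.47 for ZNF148. The methods' test with Benjamini-Hochberg adjustment called 401 and 462 genes. The slide row as a block, chosen after the file headers were seen, gave 463 and 550.

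Same-numbered arrays did not deviate together (correlations -0.10, 0.07 and -0.04), and 1 of 3 correlated best with its own number. With the replicate block 420 genes were higher and 532 lower, 357 and 382 differed in effect at 48 h and 96 h, and ZNF148 was at -1.53.

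Of the 216 named genes besides ZNF148, 78 lost the call with normexp, and 0 to 22 under each other alternative. The stricter filter on dim probes left 196 of them in the test, which kept their call. The rest were not tested under it and are not counted as lost. When the probes of a gene were averaged, MAML3 (-0.090, adjusted p = 0.84) and IL6 (-0.077, adjusted p = 0.98) turned from higher to below 0. The cause was not tested. Of the 18432 genes, 13360 were well above background on all 6 arrays.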
